A study of Mus musculus with 34 samples.

Results

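The RNA of embryonic stem cells (ESCs) that lacked Hdn was compared with that of wild-type ESCs after 5 days of differentiation with BMP4. Hdn (Handsdown) is a long non-coding RNA gene beside Hand2, which encodes a bHLH transcription factor of the heart, limb and other lateral mesoderm. The sample titles gave the groups, with 3 libraries titled Hdn null ESCs day 5 and 3 titled F1(G4) wt ESCs day 5. These are 6 of the 34 samples of the series, which also holds 4C samples, embryonic hearts and the same genotypes as undifferentiated ESCs and on days 3, 4 and 6. Both groups came from cells of the hybrid strain 129S2/C57Bl6J. Feeder cells were removed from both by serial plating, the cells were held in 2i, formed aggregates in hanging drops with serum, and then grew on fibronectin-coated dishes without serum. Recombinant BMP4 at 20 ng/mL was in the medium of mutant and wild type alike. The genotype label reads Hdn mutant, and the labels used here give neither the change in sequence, nor the number of clones, nor whether replicates were separate cultures. The p-values therefore measure only the spread between libraries. Those of limma rest on the spread within groups pooled over all 30 libraries in the table. The design text of the series speaks of Brachyury mutants and the growth protocol of dissected hearts, while the titles, source names and treatment protocol of these 6 libraries describe differentiating ESCs.

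BMP ligands bind receptor kinases that phosphorylate SMAD proteins, and the SMADs then switch on target genes such as Id1, Msx1, Msx2 and the feedback inhibitor Smad6. In the early embryo BMP4 drives the formation of posterior and lateral mesoderm, from which the heart, the limb field, the vessels and the smooth muscle of the trunk arise. Hand2, Gata factors and T-box factors work together in the cells that will form the heart.

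Levels are given as RPKM (reads scaled to gene length and to the depth of the library) as the authors deposited them, divided by a median-ratio size factor per library, and are called scaled RPKM. A gene was tested if it reached 1 scaled RPKM in at least 3 of the 30 libraries in the table, and 14196 genes did. Libraries of either genotype alone could meet this, so genes low in the other genotype could enter through the group where they were high. Changes are log2 differences of scaled RPKM + 0.5 between mutant and wild type from limma. Calls needed both a size of at least 1 on that scale and a p under 0.05 after Benjamini-Hochberg adjustment over the genes tested. The 6 libraries held 56.5 M to 61.1 M reads. Calls fell on 853 genes, 6.01% of those tested. In mutants 343 genes (2.42%) were higher and 510 (3.59%) were lower. Of these, 318 and 505 had no overlap between the groups, against 13.8% of all genes tested with all 3 mutant values above and 16.4% with all 3 below. Without wild-type replicate 1 the calls were 560 higher and 613 lower, and without mutant replicate 3 they were 385 (2.71%) and 532 (3.75%).

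2 libraries stood apart from the others of their group. In mutant replicate 3 there were RNAs that belong to grown heart muscle and to red cells. The summed level of 7 definitive heart muscle markers was 63.4 scaled RPKM there, while the other mutants had 4.53 and 5.80 and wild type had 3.80 to 3.87. The sum of 8 red cell markers was 111.5 there, while the other mutants had 3.74 and 6.19 and wild type had 0.287 to 1.08, with Hbb-y and Hbb-bt at 0. Wild-type replicate 1 correlated with the other wild-type libraries at r = 0.970 and 0.978 across genes, while those had r = 0.990 with each other. It was closer to the first 2 mutant libraries, at r = 0.972 and 0.975, than to wild-type replicate 2, and closest to wild-type replicate 3. The neural gene Sox1, on chromosome 8, which was not called, was at 7.58 scaled RPKM in wild-type replicate 1. It was at 0.369 and 0.630 in the other wild-type libraries and 0.128 to 1.59 in mutants. The sum of 4 neural markers, Sox1 among them, did not set wild-type replicate 1 apart (26.1, against 25.6 and 20.8 in the other wild-type libraries). That of 4 pluripotent markers was 122.6 in wild-type replicate 1, 62.0 and 68.7 in the other wild-type libraries and 35.4 to 59.7 in mutants.

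Hdn itself was near 0 in mutants. The gene, listed as 5033428I22Rik, lies on chromosome 8 at 57332435 to 57354580 in GRCm38 and was below the level needed for the test. Wild-type libraries held 19, 24 and 29 of its reads and mutant libraries 0, 0 and 1. The groups did not overlap, and the difference in mean level was -0.0357 scaled RPKM (two-sided exact permutation test, p = 0.1, the smallest that 3 against 3 allow). Its neighbour Gm34030, a gene that overlaps one end of Hdn, had 2, 28 and 11 reads in wild type and 0 in each mutant library. Reads of these overlapping genes cannot be assigned with certainty, because the strand setting of the counting is not given in the sources used here.

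Hand2, which begins at 57320983 on the same chromosome, 7918 bp from Hdn, was higher in mutants. Its level was 2.24, 6.44 and 10.5 scaled RPKM in wild type and 24.1, 34.2 and 35.1 in mutants. The lowest mutant library was more than 2 times the highest wild-type library, and wild-type replicate 1 was the lowest of the 6. The log2 change was 2.39 (SE 0.58, limma adjusted p = 0.004). Without mutant replicate 3 it was 2.30 (adjusted p = 0.016). Hand2os1, a non-coding RNA gene whose annotated span lies 124 bp from that of Hand2, was below the level needed for the test. It had 17, 121 and 119 reads in wild type and 209, 252 and 320 in mutants, and these did not overlap (two-sided exact permutation test on scaled RPKM, p = 0.1, the smallest possible). The Hand2 promoter is printed because 124 bp separate the annotated ends of the 2 genes. Its window in GRCm38, from RefSeq, is chr8:57320733-57321032 on the plus strand. Capitals mark the 3 motif matches in it.
Hand2: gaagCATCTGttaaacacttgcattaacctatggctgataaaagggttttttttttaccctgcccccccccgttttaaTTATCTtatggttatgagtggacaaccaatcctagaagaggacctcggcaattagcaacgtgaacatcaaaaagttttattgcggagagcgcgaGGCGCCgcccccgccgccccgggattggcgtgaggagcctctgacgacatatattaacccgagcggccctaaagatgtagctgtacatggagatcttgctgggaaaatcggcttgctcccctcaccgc
Both strands were searched. The first match, reading from the left, is to CATCTG, an E-box of the kind that HAND proteins bind with partners. The next, on the reverse strand, is to AGATAA, bound by GATA factors. The last is to GGCGCC, bound by SMAD proteins. Of 27025 RefSeq promoters of this length, 17.2% hold the E-box, 11.4% the GATA motif and 12% the SMAD motif. Of the 9544 that belong to tested genes, as Hand2 does, the shares are 10.8%, 5.89% and 22%. The T-box motif AGGTGT, held by 13.9% of all and 10.9% of these, has no match in this window.

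Among 14 genes of this stretch of chromosome 8, 7 were tested and only Hand2 and Hpgd were called. Hpgd encodes the enzyme that breaks down prostaglandins and lies 999937 bp from Hand2. It was at 4.30, 8.39 and 7.66 scaled RPKM in wild type and 0.905, 0.552 and 1.45 in mutants, with no overlap. It fell by 2.31 on the log2 scale (SE 0.25, limma adjusted p = 3.5e-07). The 5 other tested genes, Sap30, Hmgb2, Galnt7, Fbxo8 and Cep44, had log2 changes between -0.42 and -0.03. Glra3 and Adam29 had 0 reads in all 6 libraries.

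Changes on chromosomes 8 and 14 were shared over long stretches. Over the 405 genes of chromosome 8 at a mean of at least 5 scaled RPKM, the median log2 change was -0.37, and 343 of them were below 0. Against the wild-type mean, the chromosome 8 median was -0.37, -0.36 and -0.41 in mutants, while wild-type libraries lay between -0.01 and 0.01. On chromosome 14 the sign changed along the chromosome. The median change was 0.44 over 68 genes that start before 40 Mb, 1.11 over 22 genes between 40 and 50 Mb, and 0.55 over 69 genes between 50 and 60 Mb. It was -0.69 over 60 genes from 65 Mb to the end, of which 53 were below 0. Mutant libraries gave 1.18, 1.15 and 1.09 in the stretch from 40 to 50 Mb and -0.72, -0.79 and -0.64 beyond 65 Mb, and all wild-type values lay between -0.19 and 0.10. The medians of the other 18 chromosomes lay between -0.03 and 0.08. Of 274 windows of 5 Mb with at least 8 such genes, 23 had a median beyond 0.3 in either direction, and 14 of these were on chromosome 8, 8 on chromosome 14 and 1 elsewhere. These stretches were picked after their values were seen and carry no test.

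**Figure D1:**
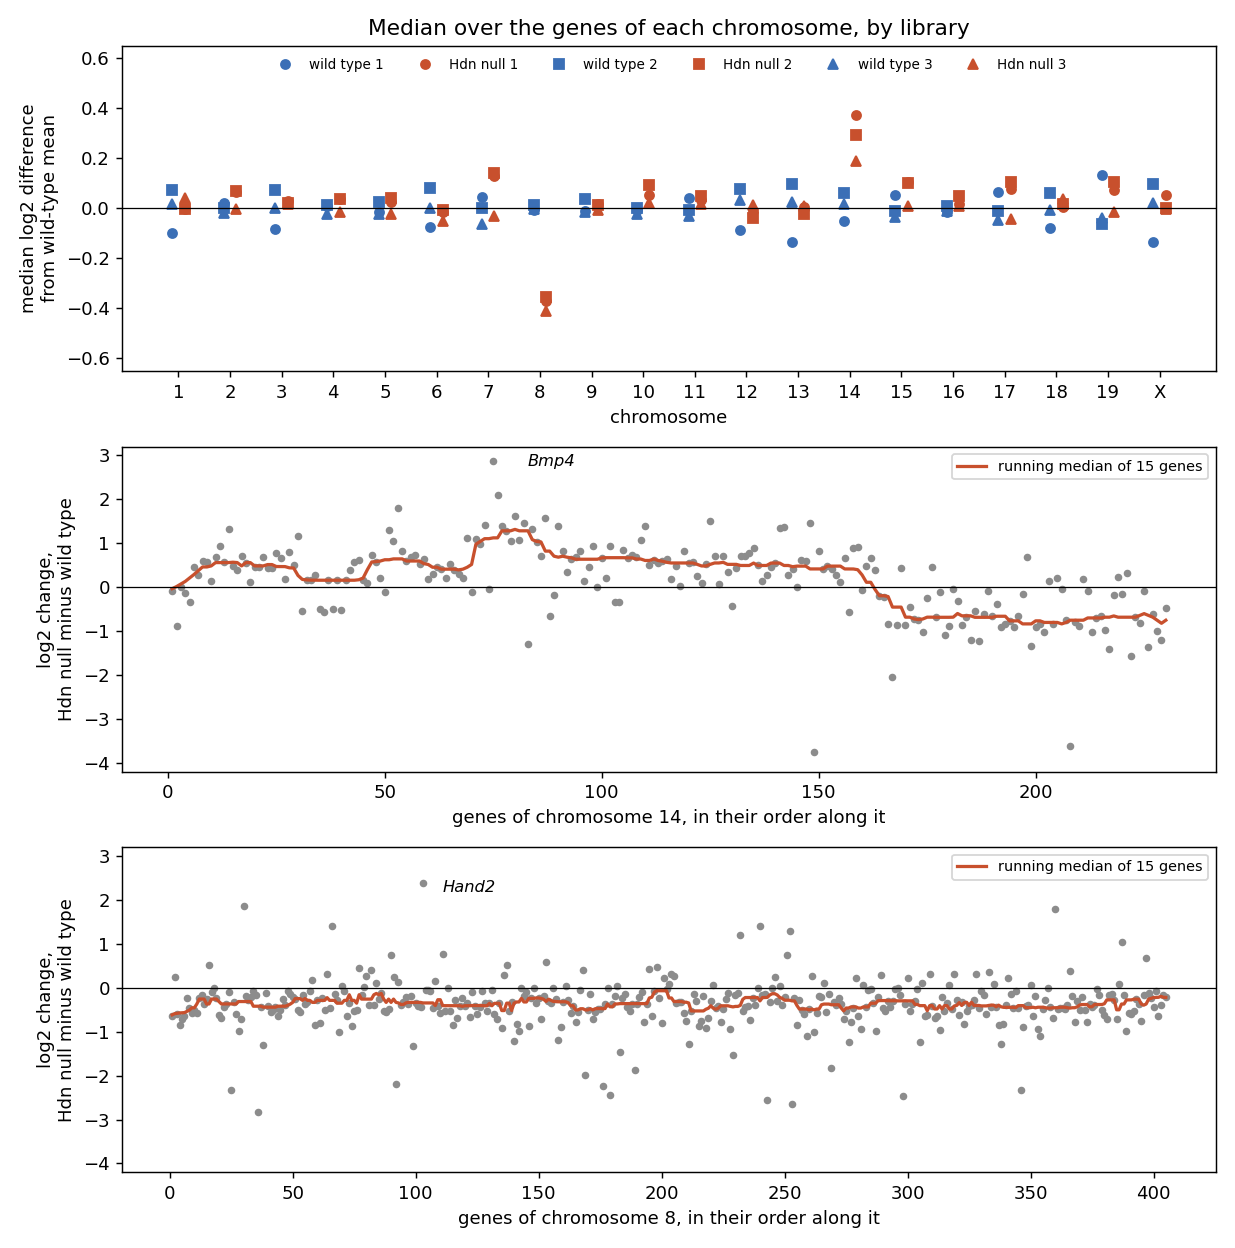
Top, the median log2 difference from the wild-type mean over the genes of each chromosome, by library (blue wild type, red Hdn null, symbols for replicates). Middle and bottom, the log2 change of each gene on chromosomes 14 and 8 in their order along the chromosome, with a running median of 15 genes in red. Mutant medians for chromosome 8 lie between -0.41 and -0.36, and chromosome 14 is above 0 for most of its length and near -0.69 at its far end.

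Most of these stretches differed the same way at the other stages. For chromosome 8 the median change was -0.57 in ESCs, -0.50 on day 3, -0.46 on day 4 and -0.43 on day 6. The other 18 chromosomes had medians from -0.42 to 0.04 in ESCs, where most were below 0 and the median over their genes was -0.25. Their medians lay between -0.11 and 0.09 on day 3, -0.11 and 0.12 on day 4, and -0.04 and 0.06 on day 6. Between 40 and 50 Mb on chromosome 14 it was 0.67 in ESCs, 1.42 on day 3, 1.58 on day 4 and 0.97 on day 6, and beyond 65 Mb it was -0.63, -0.86, -0.69 and -0.75. The stretch between 50 and 60 Mb was at -0.27 in ESCs, within the range of the other chromosomes, and above 0 on the other days. DNA copy number was not measured here, and the comparison of 2 genotypes does not say which of them departs from the other chromosomes. Without the genes of both chromosomes the calls were 291 higher and 424 lower. Genes on these chromosomes are marked as such where they are described, and the part of the stretch in their change was not tested.

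Of 39 listed genes of the BMP pathway 35 were tested, and 10 were higher in mutants and 1 was lower, against 2.42% and 3.59% of all genes tested. The gene for the ligand Bmp4, the antagonist gene Nog and the targets Tbx2, Msx1 and Smad6 led the rises, while receptors and most SMAD genes were not called. In all, 7 of the 10 rises kept the call when any 1 library was left out. The median log2 change was 0.68, against 0.00 over all genes tested. Among the ligands, Bmp4 was at 11.7, 32.9 and 36.9 scaled RPKM in wild type and 185, 182 and 173 in mutants. Every mutant library was far above every wild-type library, with little spread among mutants, in medium that held BMP4 protein in both groups. The log2 change was 2.87 (SE 0.39, limma adjusted p = 8.1e-06), and without mutant replicate 3 it was 2.89. Bmp4 lies on chromosome 14 in the stretch between 40 and 50 Mb. That stretch held 18 genes other than 4 predicted Gm genes, and 17 of the 18 had a change above 0. The median over the 17 without Bmp4 was 1.28, and Bmp4 had the largest change of the 18, followed by the neighbouring non-coding RNA gene Rubie (2.09). Bmp5 rose by 1.28 on the log2 scale, a call lost without mutant replicate 3 (0.87). Bmp2 was 1.14 higher and Bmp7 0.98 higher, and neither was called.

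The 5 receptors tested had log2 changes between -0.44 and 0.39. Smad9, a receptor-activated SMAD, rose by 1.11, with 0.99 and no call without mutant replicate 3, and the other 3 SMADs had changes between 0.13 and 0.22. Of the antagonists, Nog, whose secreted product binds BMP ligands, was at 19.6, 6.19 and 12 in wild type and 50.5, 49.9 and 45.2 in mutants. The groups did not overlap, and Nog rose by 2.04 (SE 0.38, limma adjusted p = 3e-04).

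Among 15 BMP targets 6 rose and 1 fell. Tbx2, a T-box repressor that keeps parts of the heart from becoming chamber muscle, was at 2.13, 3.26 and 6.11 scaled RPKM in wild type and 24.3, 24 and 25.9 in mutants. It had a change of 2.65 (log2, SE 0.41, limma adjusted p = 4.1e-05) and is on chromosome 11. The homeobox gene Msx1 was at 17.6, 10.9 and 26.1 in wild type and 51.4, 75.6 and 97.0 in mutants, a log2 change of 2.05 (SE 0.42, adjusted p = 8.9e-04). Smad6, which blocks BMP receptors and SMADs, was at 16.7, 9.31 and 15.5 against 53.4, 53.1 and 48.3, a log2 change of 1.90 (SE 0.20, adjusted p = 2.8e-07). None of the 3 overlapped between groups. Atoh8 (1.35) and Id4 (1.29), both regulators of transcription, also rose in every fit that left out 1 library, while Tbx3 (1.03) was lost without mutant replicate 3 (0.83) or wild-type replicate 2 (0.85). Id1, Id2 and Id3 had changes of 0.86, 0.72 and 0.88 and Msx2 of 0.99, all under the size needed for a call. Dlx3 fell by 1.75, from 21.1, 24.3 and 28 in wild type to 5.61, 6.47 and 8.82 in mutants. The promoters of Msx1 (chr5:37824536-37824835) and Smad6 (chr9:64022010-64022309), both on the minus strand, are printed beside that of Hand2 as targets of BMP that rose with it. Neither holds a match to any of the 4 motifs named above, so all letters are lower case, and no match says only that these letters are not in these windows.
Msx1: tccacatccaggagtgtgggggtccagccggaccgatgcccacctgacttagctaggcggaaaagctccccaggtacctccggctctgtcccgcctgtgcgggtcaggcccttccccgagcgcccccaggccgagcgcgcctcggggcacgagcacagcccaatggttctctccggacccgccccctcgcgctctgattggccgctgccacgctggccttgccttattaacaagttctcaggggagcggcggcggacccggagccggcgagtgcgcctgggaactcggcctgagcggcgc
Smad6: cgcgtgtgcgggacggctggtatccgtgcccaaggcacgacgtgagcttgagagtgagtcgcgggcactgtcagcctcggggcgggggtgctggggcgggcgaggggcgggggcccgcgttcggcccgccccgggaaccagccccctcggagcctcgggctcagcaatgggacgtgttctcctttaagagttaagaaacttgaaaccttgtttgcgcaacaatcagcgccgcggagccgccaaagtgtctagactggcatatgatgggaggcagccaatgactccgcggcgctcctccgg

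**Figure D2:**
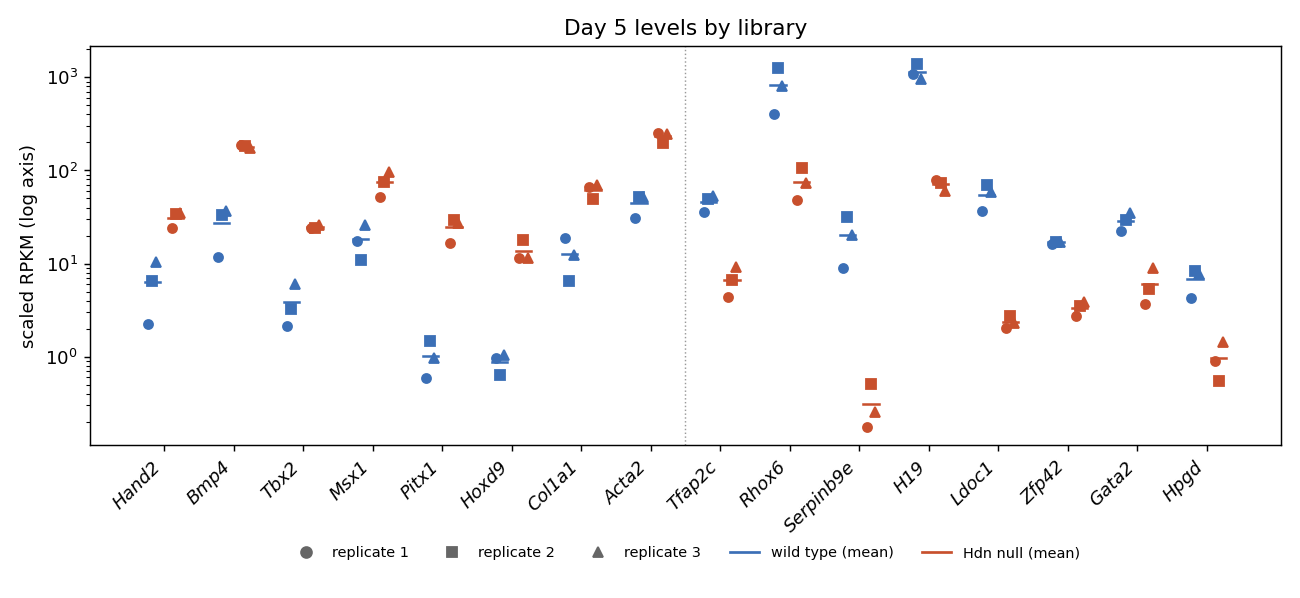
Scaled RPKM on a log axis in the 3 wild-type (blue) and 3 Hdn null (red) libraries of day 5 for 8 genes called higher and 8 called lower in mutants, with symbols for replicates and bars for group means. For these 16 genes the groups do not overlap, and wild-type replicate 1 is the lowest library for Hand2 (2.24) and Bmp4 (11.7).

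Of 36 cardiac transcription factors and their partners, 30 were tested, 9 were higher and none was lower by limma or limma-voom (1 was below 0 at an unadjusted p under 0.05). Without mutant replicate 3 the number higher was also 9. Tbx1 (from 1.41 to 2.70, adjusted p = 0.0122), Foxc2 (from 0.91 to 1.8, on chromosome 8) and Hoxb1 (from 0.70 to 1.09) were then called higher and Irx4 lower (from -0.76 to -1.07). Tbx1, a T-box factor of the second heart field and pharynx, was at 16.9, 1.84 and 3.05 scaled RPKM in wild type and 30.1, 37.4 and 1.82 in mutants, where replicate 3 was below every wild-type library. A change above 0 was seen in 26 of the 30 (median 0.76). Tbx2, Gata5, Gata6 and Hand1 kept the call without any 1 library. Gata5, a zinc finger factor of early heart and gut, was at 0.623, 0.539 and 0.803 in wild type and 2.68, 3.23 and 3.05 in mutants. It rose by 1.60 (SE 0.19, limma adjusted p = 9.6e-07). Gata6, a relative with like roles, was at 3.01, 2.80 and 6.88 against 9.93, 14 and 16.7, a log2 change of 1.64. Hand1, the sister gene of Hand2 and a marker of extraembryonic and lateral mesoderm, was at 181, 190 and 227 against 535, 524 and 685, a log2 change of 1.54. In all 3 genes every mutant library was above every wild-type library.

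The other 5 calls were less firm. Nkx2-5, the homeobox factor of cardiac progenitors, was at 1.56, 0.618 and 2.37 in wild type and 6.74, 11.3 and 2.02 in mutants, where replicate 3 lay within the wild-type range. It rose by 1.68 (limma adjusted p = 0.011), by 2.30 without mutant replicate 3, and was not called without mutant replicate 1 (1.54), mutant replicate 2 (1.19) or wild-type replicate 2 (1.30). Tbx20 rose by 1.12, with no call without mutant replicate 3 (0.78), wild-type replicate 1 (0.75) or wild-type replicate 2 (1.17, adjusted p = 0.085). Hey2 rose by 1.21 (0.99 without mutant replicate 3) and Tcf21, an epicardial factor, by 1.08 (0.92 without mutant replicate 2). The cardiac mesoderm initiator Mesp1 was at 5.09, 8.84 and 16.9 in wild type and 14.7, 9.93 and 3.93 in mutants, which overlapped. Isl1, a factor of second heart field progenitors, was 0.85 higher and Gata4, on chromosome 14, was 0.44 higher, and neither was called. Tbx5, Mef2c and Myocd were below the level needed for the test.

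Among contractile genes Tnni1 and Smyd1 rose and the atrial light chain gene Myl4 fell. Of 28 sarcomere genes tested, 7 were higher, 1 was lower and 20 were not called, and without mutant replicate 3 the counts were 6 and 1. Of the 22 outside chromosomes 8 and 14, 5 were higher and 1 was lower. With 19 genes of the list above 0 at an unadjusted p under 0.05, limma-voom called 14 higher and 1 lower. Tnni1, the troponin I of fetal heart and slow muscle, was at 1.81, 5.01 and 4.67 scaled RPKM in wild type and 18.4, 22.7 and 33.7 in mutants. It rose by 2.61 (SE 0.64, limma adjusted p = 0.0043) and by 2.38 without mutant replicate 3. Smyd1, a methyltransferase needed for sarcomere assembly, was at 0.816, 0.418 and 0.583 against 2.84, 3.53 and 3.03, a log2 change of 1.73 (SE 0.12, adjusted p = 1.7e-09). For both genes the groups did not overlap, and mutant replicate 3 lay between the other mutant libraries for Smyd1. Myl4 went the other way, from 10.2, 24.5 and 17.6 in wild type to 5.62, 7.13 and 4.83 in mutants, and fell by 1.43 on the log2 scale.

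Among 20 tested genes of adult heart and red cells 3 were higher and 1 was lower, and without mutant replicate 3 the counts were 1 and 1, while the median change dropped from 0.97 to 0.17. The number higher was 0 without wild-type replicate 2 and 1 without wild-type replicate 3, and the number lower was 2 without wild-type replicate 1. With 8 genes of the list above 0 at an unadjusted p under 0.05, limma-voom called 5 higher. Myl2, the ventricular light chain, was at 0.0322, 0.0439 and 0.0170 in wild type and 0.154, 0.153 and 20.7 in mutants. Its level in mutant replicate 3 stood apart from all other libraries, and its change was not called (adjusted p = 0.17). The adult globin genes Hba-a2 (1.12, 1.21 and 31.6 in mutants) and Hbb-bs (0, 0.160 and 27) showed the same pattern and were not called. Hba-a1 and Hba-a2 are near-identical copies whose reads cannot be told apart with certainty. Myh6, on chromosome 14, rose by 1.53 and Myl3 by 1.77, and neither was called without mutant replicate 3 (0.71 and 1.03). Both calls were also lost without wild-type replicate 2 (1.5 and 1.66), and that of Myh6 without wild-type replicate 3 (1.54, adjusted p = 0.064). Fabp3, a fatty acid carrier of muscle and other tissues, was at 212, 642 and 349 in wild type and 105, 99.9 and 169 in mutants. It fell by 1.58, and by 1.82 without mutant replicate 3. Eno3, the muscle enolase, rose by 1.04, a size at the edge of the call, and fell under it without mutant replicate 1 (0.98), mutant replicate 2 (0.91), wild-type replicate 2 (0.91) or wild-type replicate 3 (0.94). The pacemaker channel gene Hcn4 rose by 1.01 and was the only call among 12 genes of calcium handling and conduction, lost without mutant replicate 2 (0.88), wild-type replicate 2 (0.78) or wild-type replicate 3 (0.93). Without mutant replicate 3 that list had 2 calls and without wild-type replicate 1 it had 4.

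**Figure D3:**
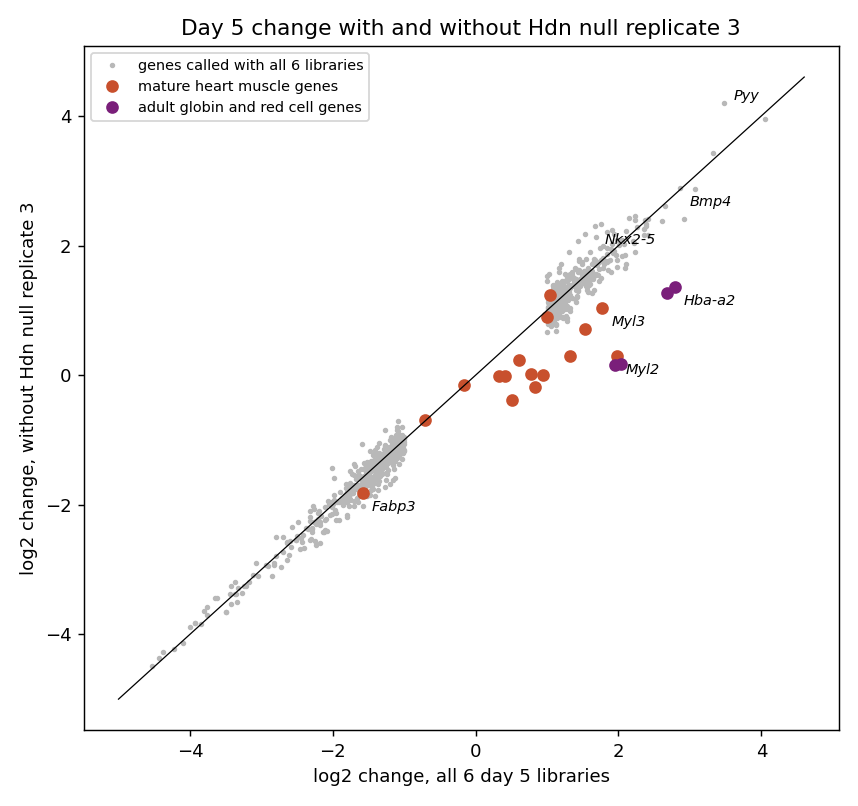
Log2 change, Hdn null minus wild type, with all 6 libraries (horizontal) and without Hdn null replicate 3 (vertical) for all called genes (grey), mature heart muscle genes (red) and adult globin and red cell genes (purple), with the line of equal values. Most grey genes lie along the line (Bmp4 2.87 and 2.89), while Myl3 drops from 1.77 to 1.03 and Pyy rises from 3.48 to 4.20.

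Homeobox genes of the limb field and the Hox clusters were among the largest rises. Of 19 tested lateral plate and limb genes 8 were higher and none was lower by limma or limma-voom, with 2 below 0 at an unadjusted p under 0.05 and 1 lower without wild-type replicate 1. All 8 kept the call without any 1 library. Of the 15 outside chromosomes 8 and 14, 6 were higher and 0 lower. Pitx1, the homeobox gene that gives the hindlimb its identity, was at 0.598, 1.47 and 0.960 scaled RPKM in wild type and 16.8, 29.4 and 27.4 in mutants. It had the largest rise of the named genes, 4.05 (SE 0.63, limma adjusted p = 4.2e-05). Prrx2, a homeobox gene of limb and face mesenchyme, was at 62.0, 20.2 and 26.9 against 126, 135 and 83.1, a log2 change of 1.78. The forkhead gene Foxf2 rose by 1.31, with no overlap between groups. Outside these lists, the homeobox genes Hlx (2.41) and Tlx1 (2.37), of visceral mesenchyme and spleen, rose in every fit that left out 1 library.

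Of 38 Hox genes 15 reached the level for the test, and 9 of these were higher (median 1.31). None was lower by limma or limma-voom, or at an unadjusted p under 0.05. The number rested on no single library, being 9 or 10 whichever one was left out. A gene could reach the level for the test through mutant libraries alone, so the filter favours rises among Hox genes low in wild type. Hoxd9 was at 0.978, 0.634 and 1.04 in wild type and 11.3, 17.8 and 11.5 in mutants, a change of 3.33 (log2, SE 0.44, limma adjusted p = 6.5e-06). Hoxb6 was at 0.368, 0.698 and 0.573 against 5.43, 9.21 and 11.2, a log2 change of 3.08 (SE 0.68, adjusted p = 0.0018). Hoxd1 (2.21), Hoxc9 (2.00), Hoxb8 (1.98), Hoxd8 (1.79) and Hoxc8 (1.54) rose as well, with no overlap between groups. Hoxb8, Hoxc8, Hoxc9 and Hoxd8 were under 0.4 scaled RPKM in wild type, so the added 0.5 holds their log2 changes down, and limma-voom on reads recovered from the RPKM gave 3.91, 4.75, 4.58 and 3.01. The remaining Hox genes, among them Hoxa13 and Hoxd13, were below the level for the test.

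Of 29 genes of the Wnt pathway tested, 9 were higher and 20 were not called. Changes ran from -0.91 to 2.26 with a median of 0.63, and 5 were below 0. None was lower by limma or limma-voom, and 1 was below 0 at an unadjusted p under 0.05. The ligand genes Wnt5a (1.69, on chromosome 14), Wnt11 (1.52) and Wnt3 (1.51) rose in every fit that left out 1 library. Cdx2, a Wnt target that opens the posterior Hox genes in the embryo and also marks trophoblast, was at 5.05, 4.46 and 5.33 in wild type and 22, 30.5 and 24.6 in mutants. The groups were far apart, and the log2 change was 2.26 (SE 0.37, limma adjusted p = 7.2e-05). Dkk1, a secreted Wnt inhibitor, rose by 1.03, with 0.99 and no call without mutant replicate 3 and 0.92 without wild-type replicate 2.

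Smooth muscle actin and type I collagen led the rises among genes of mesenchyme and matrix. Of 25 tested mesenchyme and smooth muscle genes 10 were higher and 1 was lower (median 0.94), and of 19 collagen genes 6 were higher (median 0.84). Outside chromosomes 8 and 14, 9 of 23 mesenchyme and smooth muscle genes were higher and 0 lower. No collagen gene was lower by limma or limma-voom, and 2 were below 0 at an unadjusted p under 0.05. Without wild-type replicate 1 the number of collagen genes was 10. Acta2, the smooth muscle actin, was at 31, 51.4 and 52.2 scaled RPKM in wild type and 253, 196 and 247 in mutants, a change of 2.39 (log2, SE 0.57, limma adjusted p = 0.0037). Actg2, the enteric smooth muscle actin, was at 0.0606, 0.209 and 0.117 against 1.19, 1.43 and 1.86, a log2 change of 1.66 and, with limma-voom, 3.64. Col1a1, a chain of type I collagen, was at 19, 6.47 and 12.4 against 65.7, 49.8 and 70.1, a log2 change of 2.36 (SE 0.34, adjusted p = 1.8e-05). In all 3 every mutant library was above every wild-type library. Tgfbi (1.92), Tgfb2 (1.67), Vim (1.60) and Pdgfrb (1.25) rose too. Pdgfra rose by 1.13, with 0.90 and no call without mutant replicate 3. The epithelial cadherin gene Cdh1, on chromosome 8 and named after its value was seen, was the 1 gene of this list that fell, by 1.24. The summed level of 5 markers of fibroblasts or mesenchyme, among them Col1a1, was 52.5 to 72.6 in mutants and 7.26 to 20.7 in wild type. Feeder cells were removed before differentiation, and the part of such cells in these results was not tested. In bulk RNA, more cells of a type and more RNA per cell cannot be told apart.

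Among 18 endothelial genes tested, 16 had a change above 0 and 2 below (median 0.76), with 5 called higher and 1 lower. Of 25 endothelial and early blood genes tested, 5 were higher and 2 lower. Pecam1, an adhesion molecule of endothelium, was at 3.55, 1.95 and 2.05 in wild type and 6.52, 6.15 and 7.58 in mutants and rose by 1.30 (SE 0.18, limma adjusted p = 1.4e-05). Cdh5, the endothelial cadherin, on chromosome 8, was at 2.82, 4.78 and 2.94 against 0.354, 0.722 and 0.283 and fell by 2.07 (SE 0.32, adjusted p = 3.9e-05). Gata2, a factor of blood progenitors and of trophoblast, was at 22.7, 29.3 and 35.0 against 3.65, 5.30 and 9.02 and fell by 2.25. None of these 3 overlapped between groups. Sox18 rose by 1.75, with no call without mutant replicate 2 (1.33). Its mutant values were 3.78, 5.76 and 1.08. The number of higher genes in this list was 3 without mutant replicate 1, 1 without mutant replicate 2, 3 without wild-type replicate 1 and 2 without wild-type replicate 2.

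**Figure D4:**
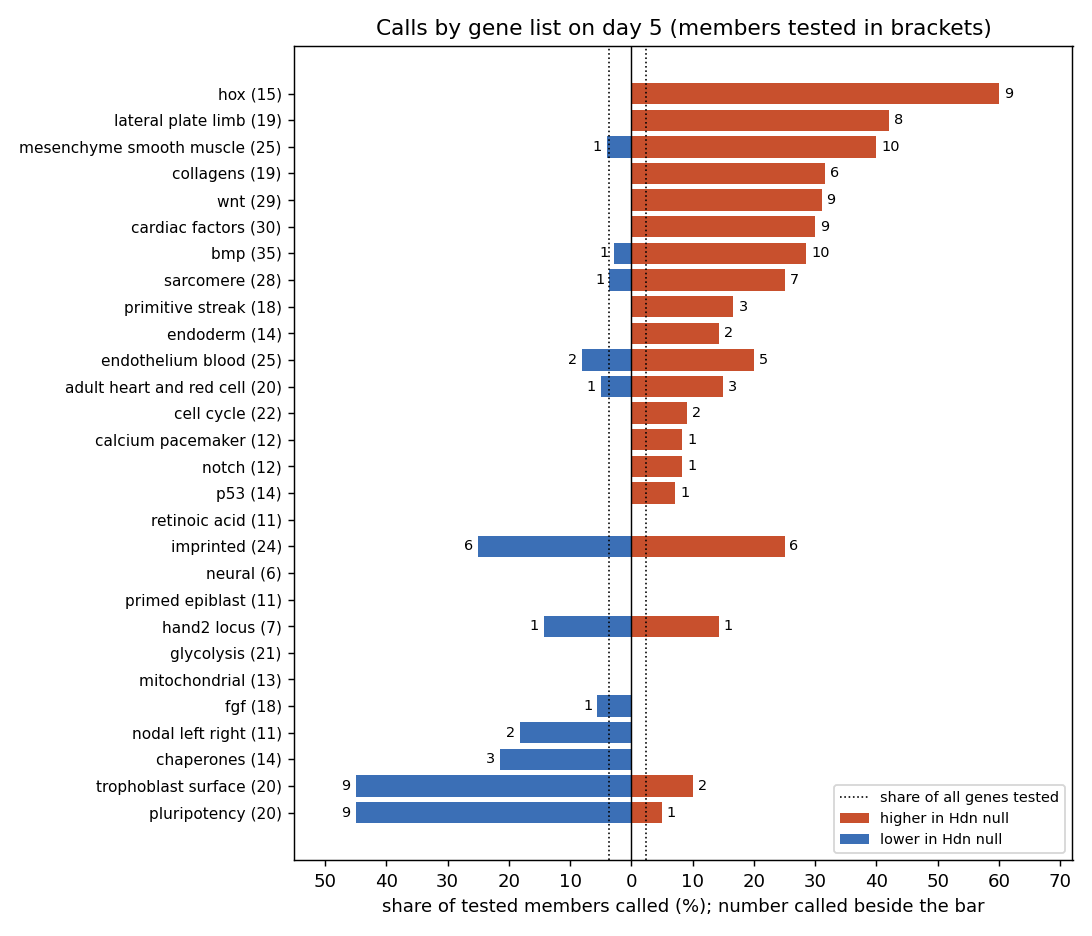
Share of the tested members of each gene list that was called higher (red, right) or lower (blue, left) in Hdn null libraries on day 5, with the number called beside each bar and, dotted, the shares over all genes tested (2.42% and 3.59%). Hox genes (9 of 15) and lateral plate and limb genes (8 of 19) have the largest shares of higher genes, and pluripotency (9 of 20) and trophoblast and surface genes (9 of 20) of lower genes.

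Of 20 tested trophoblast and surface ectoderm genes 9 were lower and 2, Cdx2 and Hand1, were higher (median -0.86). Tfap2c, a factor of trophoblast, surface ectoderm and germ cells, was at 35.6, 49.3 and 53.3 scaled RPKM in wild type and 4.40, 6.67 and 9.15 in mutants. It fell by 2.72 (SE 0.29, limma adjusted p = 2.9e-07). Ascl2, an imprinted bHLH gene that the placental spongiotrophoblast needs, was at 21.7, 28.9 and 33.5 against 4.02, 5.90 and 9.03 and fell by 2.11 (SE 0.39, adjusted p = 2.7e-04). Krt7, a keratin of trophoblast and simple epithelia, was at 38.3, 65.0 and 52.7 against 18, 17.2 and 18.2 and fell by 1.49. Each of the 3 had every mutant library below every wild-type library. Of 4 markers that define trophoblast, Tpbpa and Prl3d1 were at 0 in all mutant libraries, and the summed level of the 4 was 0.583 to 1.81 in wild type and 0.0715 to 0.168 in mutants, so they were low in both groups.

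The Serpinb9 genes and the Rhox homeobox genes, families picked after their values were seen, had members among the largest falls. Of 7 Serpinb9 genes tested 6 were lower, and of 15 Rhox genes 11 were lower, against 3.59% of all genes tested. The 1 other Serpinb9 gene, Serpinb9 itself, had a change of 0.23. Serpinb9e, one of this family of protease inhibitor genes on chromosome 13, was at 8.91, 31.4 and 20.4 in wild type and 0.175, 0.511 and 0.253 in mutants. It had the largest fall of the named genes, -4.53 (SE 0.33, limma adjusted p = 2.4e-09). Serpinb9f (-4.10) and Serpinb9g (-3.85) did the same. On the X chromosome, the homeobox gene Rhox6 was at 401, 1246 and 814 against 47.6, 106 and 73.1 and fell by 3.36, with Rhox9 (-3.65) and Rhox5 (-2.69) beside it. Outside these families Fthl17a, a ferritin-like gene, fell by 4.38, and Ldoc1, a gene derived from a retrotransposon, by 4.23, from 37.0, 69.7 and 58.1 to 2.04, 2.75 and 2.33. Dmrtc1c1 and Dmrtc1c2 fell by 3.93 and 3.92. They are near-identical copies with nearly equal values, and the Serpinb9, Rhox and Fthl17 genes also have close relatives, so the split of reads among them is uncertain. With limma-voom the falls of Serpinb9e, Fthl17a and Dmrtc1c1 were -5.96, -5.37 and -6.19. Of 509 tested genes annotated to the X chromosome 64 (12.6%) were lower and 14 (2.75%) higher, and the median change of its genes at 5 scaled RPKM or more was -0.01.

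Of the other genes with the largest falls, Gjb2 (-3.76), a gap junction gene, and Rgcc (-3.62) are on chromosome 14. Plbd1 (-3.76), C1ql2 (-3.81), Ankrd2 (-3.50) and Dio3, which encodes the enzyme that inactivates thyroid hormone (-3.50), also fell. Among the largest rises, Pyy, a gut peptide gene, was at 1.89, 4.32 and 2.31 in wild type and 53, 63.2 and 12.6 in mutants. It rose by 3.48, and by 4.20 without mutant replicate 3, its lowest mutant library. Tdo2, a tryptophan-degrading enzyme gene, rose by 2.91, with 20.9 scaled RPKM in mutant replicate 3 against 6.62 and 7.39 in the other mutants. Rprm (2.41) and Ccdc80 (2.36) completed the 15 largest rises. The 15 largest rises and 15 largest falls were drawn only from genes with no overlap between groups, so the rule fixed that trait.

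Imprinted genes changed in both directions, with 6 of 24 tested higher and 6 lower. H19, a maternally expressed non-coding RNA, was abundant in wild type, at 1093, 1386 and 957 scaled RPKM. It was at 79.2, 72.8 and 60.6 in mutants, with a change of -4.0 (log2, SE 0.35, limma adjusted p = 2e-08). Sfmbt2, a paternally expressed Polycomb gene of the placenta, was at 4.45, 8.62 and 7.79 against 0.708, 1.00 and 1.91 and fell by 2.14. Slc22a18 fell by 1.51. Grb10, which encodes an inhibitor of growth factor signalling, was at 15.8, 13.9 and 14.8 against 35.1, 32.9 and 38.3 and rose by 1.23. These 4 kept their calls without any 1 library. Igf2r rose by 1.22, with 0.90 and no call without mutant replicate 3. All 6 falls and 3 of the 6 rises kept the call whichever library was left out.

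Of 20 pluripotency genes 9 were lower and 1, Tbx3, was higher (median -1.08), and 7 of the 9 kept the call without any 1 library. Of the 17 outside chromosomes 8 and 14, 7 were lower and 1 was higher. Zfp42 (Rex1), on chromosome 8, was at 16.3, 17.2 and 17.2 in wild type and 2.71, 3.53 and 3.84 in mutants and fell by 2.18 (SE 0.16, limma adjusted p = 2.6e-09). Dppa5a was at 340, 258 and 258 against 52.4, 92.3 and 40.1 and fell by 2.28 (SE 0.30, adjusted p = 6.2e-06). Dppa4 fell by 1.35, Esrrb, a nuclear receptor of the naive state, by 1.46 and Tcl1 by 1.82. In all 5 the groups did not overlap. Fgf4 fell by 1.47 and was the only FGF gene called among 18. Nanog, named after its value was seen, was 0.91 lower (adjusted p = 0.009) and under the size needed for a call. Of the 4 pluripotent markers Pou5f1, Sox2, Nanog and Zfp42, only Zfp42 was called. Their summed level was 122.6, 62.0 and 68.7 in wild type, where replicate 1 was the highest, and 56.6, 59.7 and 35.4 in mutants. None of 11 primed epiblast genes was called by limma, and 1, Lef1, was above 0 at an unadjusted p under 0.05, with a change of 0.97 and a call by limma-voom (1.25). Without wild-type replicate 1 or wild-type replicate 3 the list had 1 call.

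Genes of the primitive streak were called in 3 of 18 cases, all higher (Wnt3, Pdgfra and Kdr), and only Wnt3 kept the call without any 1 library. Kdr, the VEGF receptor of vascular and cardiac mesoderm, rose by 1.02. It was not called without mutant replicate 2 (0.98), mutant replicate 3 (0.92), wild-type replicate 1 (0.73) or wild-type replicate 2 (1.07, adjusted p = 0.058). Of 11 Nodal and left-right genes tested, 6 were above 0 and 5 below (median 0.26), and limma called 0 higher and 2 lower. Gdf3 fell by 1.34, a call lost without wild-type replicate 1 (-0.97). Tdgf1, the Nodal co-receptor, fell by 1.11, a call lost without mutant replicate 3 (-0.92) or wild-type replicate 3 (-0.94). Cfc1 was 1.28 higher and was called by limma-voom alone of the 2 methods (1.31). Without wild-type replicate 3 the list had 2 genes higher and 1 lower.

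Of 14 heat shock chaperone genes 3 were lower. None was higher by limma or limma-voom, or at an unadjusted p under 0.05. Hspb1, a small heat shock protein gene, was at 1162, 1925 and 1437 in wild type and 622, 459 and 573 in mutants and fell by 1.43. Hspa1b fell by 1.65, and its near-identical neighbour Hspa1a by 1.37, a call lost without mutant replicate 1 (-1.19), mutant replicate 2 (-1.25) or wild-type replicate 3 (-1.14). Ccnd1 (1.06) and Ccnd2 (1.14), cyclins of the G1 phase, were the 2 calls among 22 cell cycle genes, and neither was called without wild-type replicate 2 (0.85 and 1.00). Hes1, a Notch target, rose by 1.11, with no call without mutant replicate 1 (0.95) or wild-type replicate 2 (0.87), and was 1 of 2 Notch genes called without wild-type replicate 1. Retinoic acid genes (11 tested), neural genes (6), glycolytic genes (21) and mitochondrially encoded genes (13) had no call by limma or limma-voom, with medians of 0.57, 0.00, -0.09 and -0.20. At an unadjusted p under 0.05 there were 3 retinoic acid genes and 1 neural gene above 0, 1 glycolytic gene above 0 and 4 below 0, and 0 mitochondrial genes. Leaving out wild-type replicate 1 gave 1 call each among the retinoic acid, neural and glycolytic genes, and leaving out mutant replicate 3 gave 1 neural call. The death receptor gene Fas was the only call among 14 p53 targets (1.03), lost without mutant replicate 3 (0.91), wild-type replicate 1 (0.99) or wild-type replicate 3 (0.99). Of 14 endoderm genes, Gata6 and Pyy were higher, and none was lower by limma, by limma-voom or at an unadjusted p under 0.05.

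The differences of day 5 were set beside those of the days before and after, which share no library with them. On day 4, 337 genes (2.37%) were higher and 399 (2.81%) lower in mutants. The 142 shared rises are 41.4% of those of day 5 and 42.1% of those of day 4, and the 266 shared falls are 52.2% and 66.7%. On day 6, 519 genes (3.66%) were higher and 585 (4.12%) lower. The 264 shared rises are 77.0% of those of day 5 and 50.9% of those of day 6, and the 429 shared falls are 84.1% and 73.3%. No gene called on day 5 was called in the opposite direction on day 4 or day 6. In undifferentiated ESCs, where 1214 genes (8.55%) were higher and 444 (3.13%) lower, 12 rises and 34 falls of day 5 were called the same way and 20 and 12 the opposite way. On day 3, where 124 genes (0.873%) were higher and 352 (2.48%) lower, 28 rises and 143 falls of day 5 were called the same way and 9 and 2 the opposite way.

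The changes of single genes by day are given as sizes. No gene of this paragraph was called for a difference between day 5 and day 4 or day 6, and differences from day 3 were not tested. The change of Hand2 was 0.66 on day 3, where it was not called, 1.73 on day 4 and 2.17 on day 6. That of Bmp4 was 1.60, 3.54 and 2.37 on these days. Wild-type levels of Hand2 ranged from 0.0205 to 0.881 scaled RPKM on day 4 and from 5.76 to 56 on day 6, where wild-type replicate 3 was far above the other libraries of its group. That day 6 library was also at 23.1 for Pitx1, 8.78 for Hoxb6 and 279 for Acta2, within or above the mutant range of day 5. For Bmp4 (47.7) and Hoxd9 (4.25) it was below that range. Hoxd9, Hoxb6 and Pitx1 had changes between -0.08 and 0.20 on day 3. Cdx2 had a change of 2.26 on day 4 and 0.41 on day 6, where it was not called. Tfap2c (-1.80) and Zfp42 (-2.13) were lower by day 3.

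The difference between days was called for few genes. Against day 4, limma called 11 genes, 0.0775% of those tested, at an unadjusted p under 0.05 for 1706. Smyd1 had a larger rise on day 5 (1.73) than on day 4 (0.69), a difference of 1.04 (adjusted p = 0.018), and Rgcc a deeper fall (-3.62 against -1.55), a difference of -2.07 (adjusted p = 0.028). Limma-voom called 1 of the 11, Ifit1, named after its value was seen, and neither Smyd1 (0.66, adjusted p = 0.475) nor Rgcc (-2.94, adjusted p = 0.112). Leaving out wild-type replicate 1 of day 5 gave 259 such genes, and leaving out mutant replicate 3 of day 4 gave 67. The count was 2 without wild-type day 4 replicate 1 or wild-type day 5 replicate 2, 5 without mutant day 4 replicate 1 or mutant day 5 replicate 2, and 6 without mutant day 4 replicate 2. It was 7 when wild-type replicate 3 of day 5 was left out. Against day 6, limma called 27 genes (0.19%), and 16 of these were members of the sarcomere, calcium or mature heart lists. Myh6 had a change of 1.53 on day 5 and 5.08 on day 6, a difference of -3.55 (adjusted p = 0.016), and Tnni3 0.83 and 4.58, a difference of -3.75 (adjusted p = 0.043). The transcripts of mature heart muscle that marked mutant replicate 3 of day 5 were high on day 6 as well, with a change of 7.34 for Myl2, and their part in these differences was not tested. The count against day 6 was 54 without wild-type day 6 replicate 3, and limma-voom called 0 genes (302 at an unadjusted p under 0.05).

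**Figure D5:**
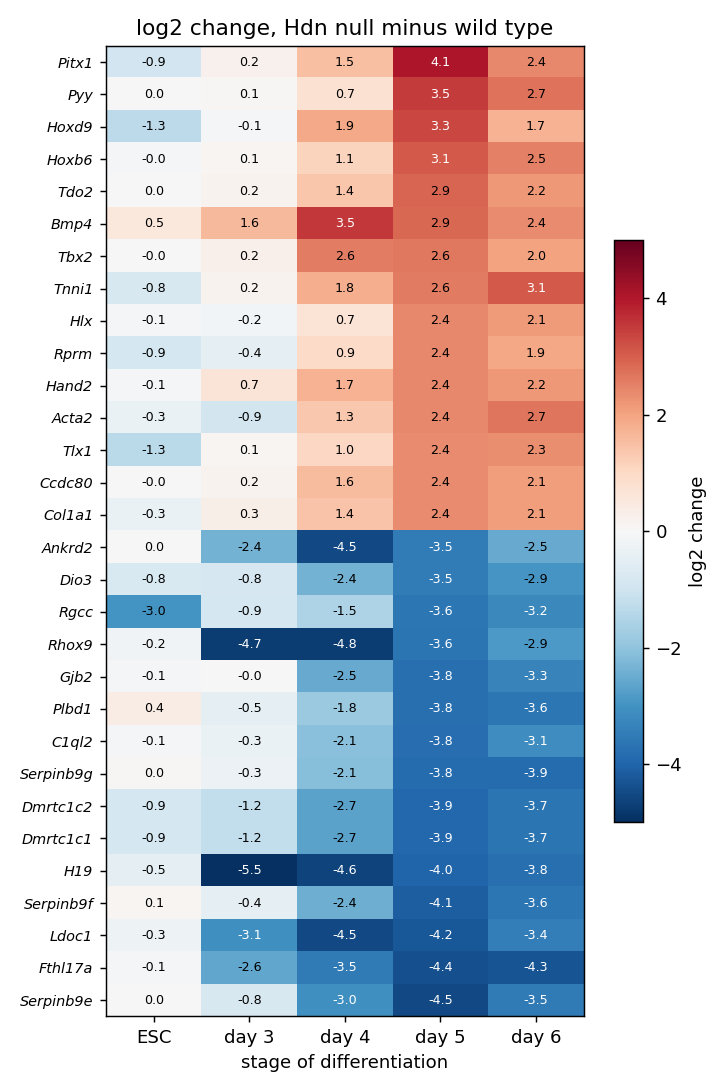
Log2 change, Hdn null minus wild type, at 5 stages for the 15 largest rises (top) and 15 largest falls (bottom) of day 5, with the value in each cell and colours from red (higher) to blue (lower) that saturate at a change of 5. Bmp4 and H19 differ from day 3 on (1.60 and -5.48), while Pitx1, Hoxd9 and Hoxb6 are near 0 on day 3 and at 3.08 to 4.05 on day 5.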

How the data were processed

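RNA-seq libraries were made with the ScriptSeq v2 kit, per the labels' protocols. The authors deposited 1 table of RPKM values for 52636 genes in 30 libraries, and per the submitters' processing notes they used STAR, DESeq2 and mm10, with no versions given. Its header stands 1 cell to the left of its values and was read so. The RPKM resolve into whole reads (99.999% of values above 0 within 0.001 reads), which gave 43.3 M to 68.4 M reads per library and the read counts printed here. Values were divided by median-ratio size factors (0.888 to 1.11) over 11618 genes. A gene stayed in when 3 or more libraries reached 1 scaled RPKM, 0.5 was added, and log2 values of all 30 libraries were fitted with limma 3.58.1 (R 4.3.3), with trend and 1 mean per group. Tests were two-sided and adjusted over 14196 genes, and the fit was tested on simulated data. The simulation gave all genes the same setting of spread and no library that stood apart, so it does not cover the spread seen here. Named genes were the 15 largest rises and falls with no overlap between groups and a call kept without mutant replicate 3, up to 6 genes per list by adjusted p, and all tested members of the Hand2, cardiac factor, BMP, and adult heart and red cell lists. The comparison, the 29 lists and this rule were chosen with earlier results of these data known. Gene positions and promoters came from RefSeq tables for GRCm38.p6, with a promoter for 178 of 244 named genes, and each window is at the first listed start. Alternatives varied the scaling, pseudocount, filter, model and libraries. Same-numbered libraries deviated from their group means with r = 0.143, -0.119 and 0.398, and libraries of other numbers with -0.382 to 0.263. These values do not show whether the numbers pair them, and the main fit used no pairing.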

Additional observations from a re-analysis of the deposited data

Results flagged for a closer look

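Of the genes named here, 2 had a difference between mutant and wild type on day 5 that departed from that of day 4 by limma's test of the difference between days. Rgcc departed by -2.07 on the log2 scale (adjusted p = 0.0276) and Smyd1 by 1.04 (adjusted p = 0.0184). With limma-voom neither was called, at -2.94 (adjusted p = 0.112) and 0.66 (adjusted p = 0.475). Another 9 departed from the difference of day 6, and each had the smaller change on day 5. Among the sarcomere genes the departure was -1.33 for Ldb3 and -2.05 for Myh7, and for the calcium store gene Casq2 it was -2.69. Among the genes of mature heart muscle it was -3.55 for Myh6, -3.75 for Tnni3, -3.30 for Ckm, -2.31 for Pln, -2.43 for Tcap and -2.16 for Nppa. The adjusted p of these 9 lay between 3.46e-05 and 0.0426. The libraries left out elsewhere for heart transcripts were mutant replicate 3 of days 4 and 5 and every mutant library of day 6. None was wild type, and the part of these transcripts in the departures was not tested. Rgcc, Ldb3, Myh7 and Myh6 are on chromosome 14, where changes were shared over long stretches. Limma-voom called 0 genes for the comparison with day 6, with 302 genes at an unadjusted p under 0.05.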

How the results depend on the processing

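Of 107 called genes named here, 78 kept the call under each of the 18 alternatives that tested them, and 29 lost it in at least 1. A gene that an alternative did not test, as with the filter of 5 scaled RPKM, was not counted as a loss there. The 343 rises of day 5 became 601 with limma-voom (chosen after the data were seen), 541 with a pseudocount of 0.1 and 1408 by adjusted p alone, and 255 to 560 when 1 library was left out. The 510 falls became 333 with a filter of 5 scaled RPKM, 836 with limma-voom and 1550 by adjusted p alone, and 443 to 613 when 1 library was left out. With only the 6 day 5 libraries in the fit there were 265 rises and 454 falls. Nkx2-5, Tbx20, Bmp5, Sox18, Hes1, Fabp3 and Hspa1a were among the genes that then lost the call. The 11 genes that differed between days 5 and 4 became 5 with a filter of 5, 1 with limma-voom, 7 with a pseudocount of 0.1 or 1, 39 without the 5 libraries that hold heart transcripts, and 2 to 259 when 1 library was left out. The 27 that differed between days 5 and 6 became 1 with a filter of 5, 0 with limma-voom (302 at an unadjusted p under 0.05), 51 with no filter, 3 with a pseudocount of 0.1, and 19 to 54 when 1 library was left out. Without the 5 libraries with heart transcripts the comparison with day 6 could not be fitted, because every mutant library of day 6 was among them. With the replicate number as a block there were 358 rises and 512 falls on day 5, and 63 and 32 genes that differed from days 4 and 6, although same-numbered libraries are not shown to be pairs. The cause of these changes was not tested. Counts for Hdn (0 to 29 reads) limit what can be said of its level, and with 3 libraries a group a single value cannot reach an exact p below 0.1.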
